A study of Mus musculus with 14 samples.

Results

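The 8 genes described here, Axl, Mertk, Itgb5, Apoe, Ms4a7, Cst3, Lgmn and Slco2b1, are expressed by tissue macrophages and take part in the removal of dying cells, in lysosomal digestion and in lipid handling. They were taken by gene symbol from a table of 54532 genes, and all 8 were found there. All 8 were among the 15915 genes that passed the filter on low counts, and all 8 also passed it when their highest group was left out. The genes were chosen by their fold change between tdTomato-positive and tdTomato-negative cells without radiation, which was known beforehand. That difference is therefore given as a description, and no test of it supports the choice.

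RNA was sequenced from cells sorted out of the submandibular (salivary) gland of adult mice of genotype TertCreERT2/+ Rosa26LSL-tdTomato/+. In these mice the Tert locus drives a tamoxifen-inducible Cre recombinase, and Cre switches on the red reporter tdTomato for good in a cell and its descendants. All groups shared this genotype and a gate for cells negative for DAPI and positive for EpCAM, an epithelial surface protein. Cells positive for tdTomato are called Tert+ and cells negative for it Tert-. Each population was sequenced without radiation in 3 libraries and after a dose of 15 Gy, written RT, in 4 libraries. The labels give neither the time from RT to sorting nor whether a replicate is a mouse of its own, and p-values therefore cover the spread between libraries, which may be technical.

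A dying cell exposes phosphatidylserine on its surface, and phagocytes recognise it through bridging proteins and receptors, a process called efferocytosis. The TAM receptor kinases Tyro3, Axl and Mertk bind phosphatidylserine through the bridging ligands Gas6 and protein S (Pros1), and the integrin of the alpha-v and beta-5 chains binds it through Mfge8. The engulfed cell is then digested in lysosomes by proteases such as legumain, and its cholesterol leaves the macrophage through ABC transporters onto apolipoprotein E. Axl, Mertk and Apoe are known in macrophages of many tissues, and all of them are also made by other cell types.

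Several features of the libraries bear on every value below. Total counts ran from 5520412 to 15943597 per library. The sort marker Epcam was low, at 29.7 to 126 CPM (read counts scaled to a common library total), whereas the B cell gene Cd79a stood at 2134 to 3923 CPM and the pan-leukocyte gene Ptprc at 1195 to 1638 CPM, so the libraries held much immune RNA in spite of the EpCAM gate. The cell type field of the labels named the opposite population to the title in 14 of 14 libraries, and groups follow the titles. Tert RNA itself ran from 0 to 8 counts in Tert+ and 13 to 28 counts in Tert- libraries without RT, and from 0 to 52 and 0 to 15 counts after RT. The direction without RT is against the titles, but it rests on few counts (log2 fold change -2.29 ± 1.70, SE, edgeR unadjusted p = 0.198). Since tdTomato stays on for good, Tert RNA at sorting need not follow it. All RT libraries carry higher library numbers than the others, so RT and the set of libraries cannot be told apart.

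Macrophage RNA was present in every group, and most of its markers were lower in Tert+, as the 8 genes were. Summed over a list of 22 macrophage markers, it was 177 to 381 CPM in Tert+ without RT, 1940 to 2783 CPM in Tert- without RT, 204 to 293 CPM in Tert+ after RT and 329 to 1470 CPM in Tert- after RT. The markers Vsig4 and Clec4f, of resident macrophages of liver and some other tissues, were at 0 in all 14 libraries. Of the 17 markers tested, 16 were lower in Tert+ without RT and 15 were lower after RT. Markers shared by myeloid cells followed less: of 12 pan-myeloid markers 9 were lower in Tert+ without RT (median log2 fold change -0.38). After RT 5 were lower and 7 higher (median 0.09), with 0 past the threshold in either state. Summed fibroblast markers were far lower, at 3.68 to 117 CPM over all libraries, with Pdgfra at 0 throughout. Without RT 7 of 8 tested were also lower in Tert+ (median log2 fold change -1.97, 0 past the threshold), where 7796 of 15915 genes were lower. After RT 5 of 8 were lower (median -0.44), near the share of all genes, 8024 of 15915. Of 8 tested endothelial markers 6 were lower in Tert+ without RT (median -1.87, 0 past the threshold) and 5 after RT (median -0.76). The summed level of the 12 listed, 182 to 295 CPM over all libraries, overlapped between all groups, but most of it was Pecam1 (160 to 276 CPM). Of these 12 markers, 6 were at 0 throughout Tert+ without RT, against 1 in each other group. In such bulk samples fewer macrophages and less RNA per macrophage cannot be told apart. The part of macrophage, fibroblast or endothelial content in the results below was not tested. The ratios to complement C1q RNA given near the end are a description and no test of it.

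Promoter sequence is given first, since 7 of the 8 genes, all but Mertk, followed the mean of the others across the libraries with r of 0.780 or more, a description. The sequences are the 250 bases before the RefSeq start site in GRCm38.p6, read 5′ to 3′ on the gene's strand, and all 8 genes had an entry. Those of 3 genes follow, from the receptor Axl, the membrane protein gene Ms4a7 and the lipid carrier Apoe, because these genes are described at length below and differ in base composition. Capitals mark the letters GAGGAA or their reverse complement TTCCTC, the core recognised by PU.1, a transcription factor of myeloid cells.
Axl, chr7:25788734-25788983, minus strand: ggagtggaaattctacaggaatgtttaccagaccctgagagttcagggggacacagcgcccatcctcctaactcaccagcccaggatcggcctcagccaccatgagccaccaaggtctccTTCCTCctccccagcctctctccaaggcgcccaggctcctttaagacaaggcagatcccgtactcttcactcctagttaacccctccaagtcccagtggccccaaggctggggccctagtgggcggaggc
Ms4a7, chr19:11336147-11336396, minus strand: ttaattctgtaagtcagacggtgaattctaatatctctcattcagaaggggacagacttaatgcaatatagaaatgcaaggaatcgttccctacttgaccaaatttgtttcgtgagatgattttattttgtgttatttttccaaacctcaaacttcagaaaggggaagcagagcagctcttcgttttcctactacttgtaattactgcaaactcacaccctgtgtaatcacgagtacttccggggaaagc
Apoe, chr7:19699189-19699438, minus strand: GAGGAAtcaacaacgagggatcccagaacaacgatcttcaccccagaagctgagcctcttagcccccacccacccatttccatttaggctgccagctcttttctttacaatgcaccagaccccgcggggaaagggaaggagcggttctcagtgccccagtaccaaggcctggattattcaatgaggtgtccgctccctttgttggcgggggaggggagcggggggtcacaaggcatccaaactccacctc
The core was found on either strand in 3 of 8 windows, those of Axl, Apoe and Cst3, against 23.3% of 32851 mouse promoter windows of the same length. The windows of 7 genes held 57.2% to 65.2% G and C, and that of Ms4a7 held 38.8%, against a median of 52.4% over all windows. A nuclear receptor half-site, AGGTCA, was found on either strand in 1 of 8 windows (Cst3) against 14% of all windows, and the E-box CACGTG, a form bound by regulators of lysosome genes, in 0 of 8 against 6.02%. TGCTGA, a MAF half-site, was found in 1 of 8 (Cst3) against 16.1%. None of these motifs overlaps another in its letters. A match describes these letters only.

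Levels between genes can be compared once divided by gene length. In Tert- cells without RT, where all 8 genes had their highest mean, Cst3 reached 881 ± 69.2 CPM per kilobase (SD, n = 3) and Apoe 730 ± 116, which did not differ beyond their spread. Lgmn followed at 181 ± 25.1 CPM per kilobase. Itgb5 at 31.8 ± 7.01, Axl at 21.3 ± 7.24, Ms4a7 at 13.9 ± 1.94 and Slco2b1 at 7.56 ± 2.54 CPM per kilobase formed a lower tier. In it Itgb5 and Axl, and Axl and Ms4a7, differed by less than their summed SDs, and Ms4a7 and Slco2b1 by more. Mertk was lowest, at 0.664 ± 0.612 CPM per kilobase. In Tert+ cells without RT, Cst3, Apoe and Lgmn averaged 346, 192 and 106 CPM per kilobase, and the other 5 genes averaged between 0 and 3.87.

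**Figure D1:**
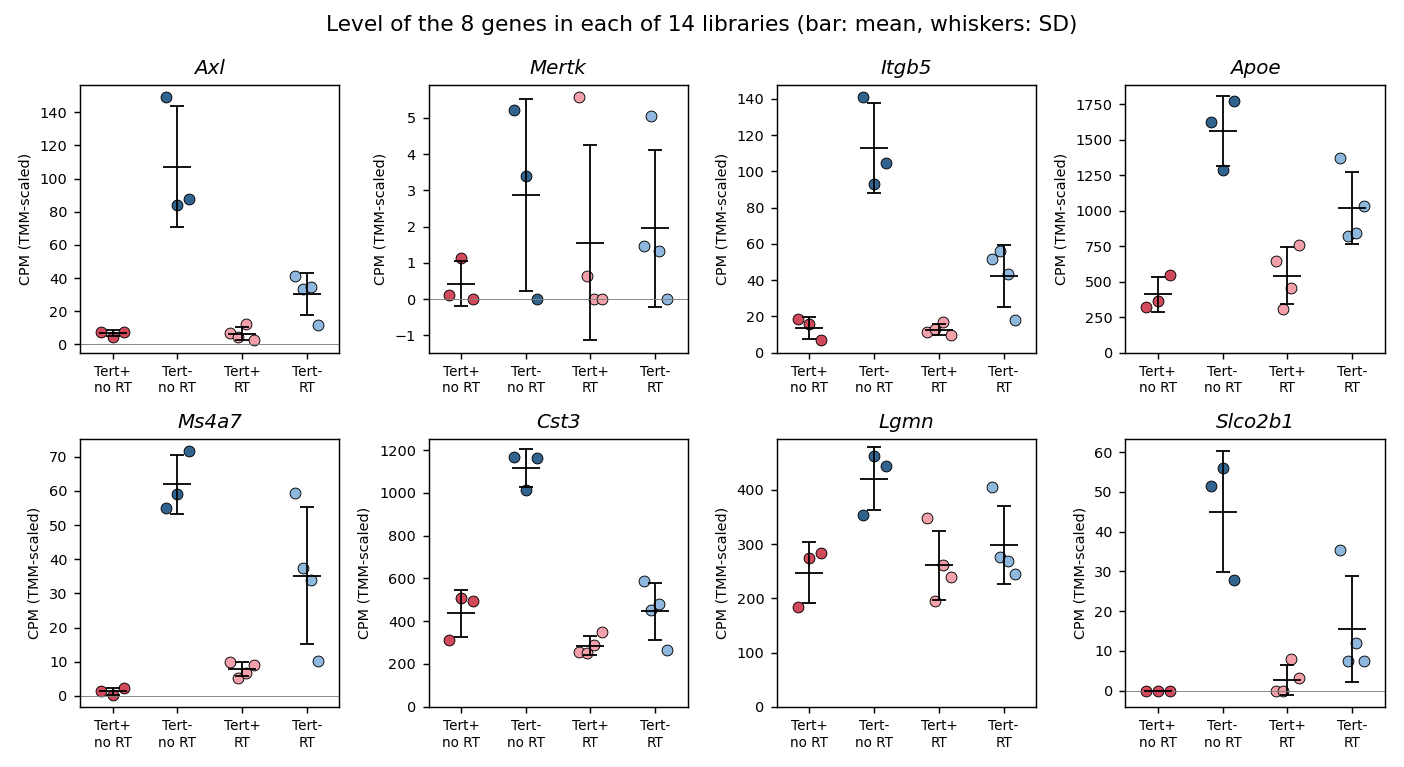
Level of each of the 8 genes in CPM on TMM-scaled totals (linear vertical axes that differ between panels), 1 point per library in the 4 groups, with a bar at the mean and whiskers at 1 SD. For 7 of the genes all Tert- libraries without RT lie above all Tert+ libraries without RT, whereas the points of Mertk mix.

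Gene positions are those of the deposited table on mm10, and each spans the whole gene, exons and introns. Axl (ENSMUSG00000002602, chr7:25757273-25788705, minus strand) encodes a TAM receptor kinase that binds Gas6. Its level in Tert+ libraries without RT was 7.70, 4.49 and 7.59 CPM, and in Tert- libraries without RT it was 149, 84.3 and 87.9 CPM. After RT it was 7.06, 4.36, 12.01 and 2.65 CPM in Tert+ and 41.2, 33.5, 34.8 and 11.99 CPM in Tert-. Tert- libraries were high and Tert+ libraries low in both states, and after RT the ranges met at a single pair, the highest Tert+ library and Tert- replicate 4. Axl averaged 16.3-fold lower in Tert+ without RT (log2 fold change -4.03 ± 0.54, SE). After RT it was 4.66-fold lower (log2 fold change -2.22 ± 0.44, SE), which did not pass the threshold of an adjusted p of 0.05 in edgeR (adjusted p = 0.2).

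Itgb5 (ENSMUSG00000022817, chr16:33829665-33949338, plus strand) encodes the beta-5 integrin chain. Tert+ libraries without RT held 18.4, 15.996 and 6.83 CPM, and Tert- libraries without RT held 141, 93.3 and 105 CPM. After RT the values were 11.4, 12.8, 16.8 and 9.41 CPM in Tert+ and 51.9, 55.9, 43.2 and 18.2 CPM in Tert-. The groups did not overlap in either state, although Tert- replicate 4 after RT came within the range of the unirradiated Tert+ libraries. The log2 fold change of Tert+ against Tert- was -3.04 ± 0.42 (SE) without RT and -1.75 ± 0.35 (SE) after RT, where the edgeR adjusted p was 0.206.

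Mertk (ENSMUSG00000014361, chr2:128698956-128802894, plus strand), the TAM receptor named most often in macrophage efferocytosis, was close to the limit of detection. It had 0 counts in 5 of 14 libraries and at most 71 counts in any. The values without RT were 0.122, 1.14 and 0 CPM in Tert+ and 5.23, 3.41 and 0 CPM in Tert-. After RT they were 5.58, 0.647, 0 and 0 CPM in Tert+ and 1.45, 5.06, 1.32 and 0 CPM in Tert-. High and low libraries occurred in both populations, and no difference was detectable at this depth (log2 fold change after RT -0.31 ± 1.73, SE, edgeR adjusted p = 0.994).

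Apoe (ENSMUSG00000002985, chr7:19696109-19699188, minus strand) encodes apolipoprotein E, which carries cholesterol and other lipids out of macrophages. Without RT it stood at 318, 366 and 549 CPM in Tert+ and at 1624, 1285 and 1770 CPM in Tert-. After RT it stood at 642, 303, 456 and 757 CPM in Tert+ and at 1367, 821, 845 and 1034 CPM in Tert-. Every Tert- library exceeded every Tert+ library of its RT state. The difference was 3.80-fold without RT and 1.88-fold after RT (log2 fold change -0.91 ± 0.26, SE, edgeR adjusted p = 0.374).

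Ms4a7 (ENSMUSG00000024672, chr19:11321039-11336146, minus strand) encodes a tetraspanning membrane protein of the MS4A family that marks macrophages and microglia. It was nearly absent from Tert+ libraries without RT, at 1.34, 0.379 and 2.28 CPM (11, 6 and 30 counts), and reached 55.1, 59.0 and 71.6 CPM in Tert- libraries without RT. After RT it was 9.85, 5.33, 6.82 and 8.98 CPM in Tert+ and 59.3, 37.4, 33.9 and 10.3 CPM in Tert-. Tert+ libraries lay below Tert- libraries in both states, but the gap after RT was narrow because of Tert- replicate 4. The log2 fold change of Tert+ against Tert- was -5.54 ± 0.65 (SE) without RT and -2.17 ± 0.47 (SE) after RT, where the edgeR adjusted p was 0.293.

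Lgmn (ENSMUSG00000021190, chr12:102394084-102439813, minus strand) encodes legumain, an asparaginyl endopeptidase of lysosomes, and Cst3 (ENSMUSG00000027447, chr2:148871722-148875692, minus strand) encodes cystatin C, a secreted inhibitor of cysteine proteases that also inhibits legumain. Cst3 was measured at 311, 509 and 494 CPM in Tert+ without RT, 1167, 1014 and 1164 CPM in Tert- without RT, 258, 250.2, 286 and 348 CPM in Tert+ after RT and 586, 453, 480.5 and 264 CPM in Tert- after RT. The Tert groups stood apart without RT and overlapped after RT through Tert- replicate 4. Lgmn was measured at 183, 275 and 284 CPM in Tert+ without RT, 354, 463 and 445 CPM in Tert- without RT, 347, 195, 261 and 239.8 CPM in Tert+ after RT and 405, 275, 268 and 245 CPM in Tert- after RT. Lgmn varied least between group means of the 8 genes, from 247 to 420.3 CPM, and its Tert+ and Tert- libraries were interleaved after RT. After RT the log2 fold change of Tert+ against Tert- was -0.64 ± 0.21 (SE) for Cst3 and -0.19 ± 0.20 (SE) for Lgmn, and neither passed the edgeR threshold (adjusted p = 0.481 and 0.939).

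Slco2b1 (ENSMUSG00000030737, chr7:99657804-99711340, minus strand) encodes an organic anion transporter of the plasma membrane. It had no count in any of the 3 Tert+ libraries without RT, against 51.4, 55.9 and 27.7 CPM in Tert- without RT. After RT it was 0, 0, 7.91 and 3.08 CPM in Tert+ and 35.4, 7.39, 11.9 and 7.51 CPM in Tert-. Only the ranges without RT were separate, since the highest Tert+ library after RT exceeded 2 Tert- libraries. Against a floor of 3 counts over the group, Slco2b1 was at least 575-fold lower in Tert+ without RT, a bound that covers counting error only. After RT its log2 fold change was -2.50 ± 1.03 (SE, edgeR adjusted p = 0.631). The antisense gene Gm34280 overlaps it and had 44 counts over all libraries, and whether counting used the strand is not given in the sources used here.

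Across the genes, the contrast that guided the choice gave lower values in Tert+ for 8 of 8 without RT. Axl, Itgb5, Apoe and Ms4a7, 4 of 8, passed the edgeR threshold there, where 0.0377% of all genes tested were called lower, and 7 of 8 had groups that did not overlap, against 4.83% of all genes. DESeq2 called 6 of 8 (these 4, Cst3 and Slco2b1), where it called 0.492% of all genes lower. The choice of genes fixed these counts, and nothing is read from them. The median log2 fold change of the 8 genes was -2.87, against 0.01 over all genes tested.

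The contrast after RT compares 8 libraries that took no part in the contrast without RT. The spread behind its p-values was estimated from all 14 libraries, and the genes were chosen with earlier results of these data known. All 8 genes were lower in Tert+ after RT, and their median on the log2 scale was -1.33 against -0.004 over all genes tested. None of the 8 passed the edgeR threshold, where 0.00628% of all genes were called lower. At an unadjusted p under 0.05, 6 of 8 were lower, against 3.8% of all genes, and Mertk and Lgmn were not among the 6. The groups did not overlap for 3 of 8 (Itgb5, Apoe and Ms4a7), against 2.46% of all genes. DESeq2 called Axl, Itgb5, Apoe and Ms4a7 lower after RT, 4 of 8 against 0.366% of all genes, and limma voom called 0 of 8 members and 0 genes. The macrophage markers moved with these genes after RT, with a median of -2.20 on the log2 scale, 12 of 17 lower at an unadjusted p under 0.05 and 0 of 17 past the threshold. Markers of monocytes and neutrophils were higher in Tert+ after RT for 13 of 13 tested, with a median of 2.78. Of these only Ly6c2, a monocyte surface protein gene, passed (0.00628% of all genes were called higher).

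**Figure D2:**
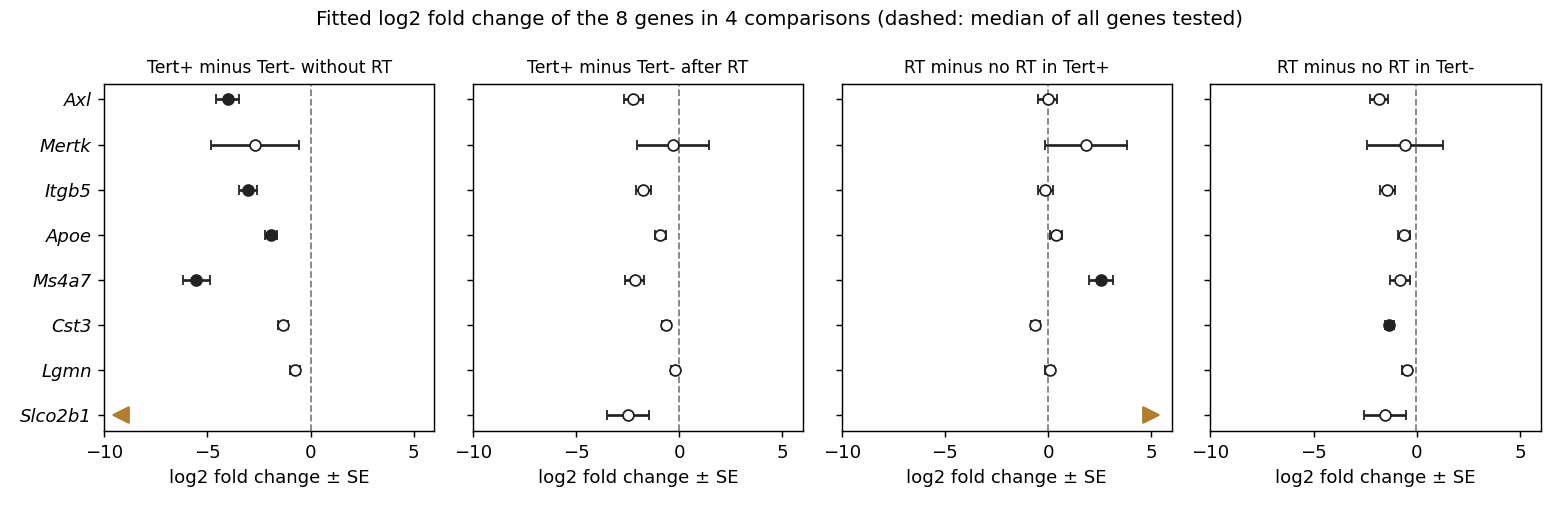
Fitted log2 fold change of each gene with its SE in 4 comparisons, with filled points for genes past an edgeR adjusted p of 0.05 and a dashed line at the median of all genes tested. Triangles give Slco2b1 at its lower bound, where Tert+ without RT is at 0 (at least 575-fold and at least 31.8-fold), and all 8 genes lie left of the line in both Tert comparisons.

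The effect of RT was compared within each population. Both comparisons reuse the libraries without RT, whose difference guided the choice of genes, so high Tert- and low Tert+ starting values are in part built in, and the values are set side by side. In Tert- cells, 8 of 8 genes were lower after RT, and the median on the log2 scale was -1.07 against -0.02 over all genes. Cst3 alone passed the edgeR threshold and fell by 1.32 ± 0.23 on the log2 scale (SE, adjusted p = 0.0146), 1 of 8 where 0.804% of all genes were called lower. Groups did not overlap for 3 of 8 (Axl, Itgb5 and Cst3), against 9.22% of all genes. DESeq2 called 3 of 8 lower (Axl, Itgb5 and Cst3), against 4.14% of all genes. Axl had a log2 fold change of -1.82 ± 0.45 (SE, edgeR adjusted p = 0.052) and Itgb5 one of -1.42 ± 0.36 (SE, adjusted p = 0.0582).

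In the same comparison Apoe, Ms4a7, Lgmn, Slco2b1 and Mertk ranged from -0.49 to -1.54 on the log2 scale, with edgeR adjusted p-values of 0.229 to 0.917. Among Tert- libraries after RT, replicate 1 was highest for 6 of the 8 genes and replicate 4 lowest for 6 of them. The fall of Cst3 no longer passed when Tert- without RT replicate 2 or 3, or Tert- after RT replicate 3, was left out (adjusted p up to 0.0822). Macrophage markers were lower for 14 of 17 in this comparison, with a median of -1.11 and 0 past the threshold, and of 12 pan-myeloid markers 11 were lower and 3 fell (Spi1, Fcer1g and Ctss). Markers of other cells were lower too: 12 of 13 for monocytes and neutrophils (median -2.80, Ly6c2 past the threshold), 12 of 12 for T cells (median -1.89), 8 of 8 for fibroblasts (median -2.17) and 10 of 14 for dendritic cells (median -1.58), with 0 past the threshold in the last 3 lists. Over all genes tested, 8078 of 15915 were lower. The part of these cells in the result was not tested.

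In Tert+ cells, Ms4a7 rose 5.89-fold after RT (log2 fold change 2.56 ± 0.58, SE, edgeR adjusted p = 0.0372), and every RT library exceeded every library without RT, as for 7.28% of all genes. It was the only 1 of 8 called, where 1.11% of all genes were called higher and 0.873% lower. DESeq2 called 2 of 8 higher, Ms4a7 and Slco2b1, against 4.04% of all genes. The call was lost when any 1 of the 7 Tert+ libraries, or Tert- after RT replicate 2 or 3, was left out, and with limma voom or a fit to the Tert+ libraries alone (adjusted p up to 0.177). Slco2b1 went from 0 in all libraries to 2 of 4 with counts, at least 31.8-fold higher over the pooled group, with an edgeR adjusted p of 0.0859. Axl, Itgb5, Apoe and Lgmn had log2 fold changes of -0.13 to 0.39, and Cst3 had -0.62 ± 0.23 (SE, adjusted p = 0.168). Macrophage markers had a median of -0.27 in Tert+ cells, 8 of 17 higher and 0 past the threshold.

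The test of whether the Tert difference itself changed with RT gave a positive value for 8 of 8 genes, with a median of 1.55 on the log2 scale against 0.01 over all genes. As fitted, the difference was smaller after RT, from 0.57 ± 0.31 (SE) for Lgmn to 3.38 ± 0.74 (SE) for Ms4a7 among the genes with counts in all libraries. Mertk had 2.40 ± 2.68 (SE). The choice of genes by their difference without RT fixes this direction in part. None of the 8 passed in edgeR (adjusted p = 1 for each), and 0 of 15915 genes passed (0% called higher). At an unadjusted p under 0.05, 6 of 8 were positive against 2.06% of all genes. That count uses the values that guided the choice, and nothing is read from it. DESeq2 called 1 of 8, Ms4a7, where 0.0568% of all genes were called higher.

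The partners of the receptors were followed next. Gas6, the ligand of Axl, averaged 14.8 ± 6.91 CPM (SD, n = 3) in Tert+ and 20.2 ± 11.7 CPM (SD, n = 3) in Tert- without RT, and 30.7 ± 18.6 CPM (SD, n = 4) and 43.9 ± 16.4 CPM (SD, n = 4) after RT. Pros1 averaged 8.73 ± 1.58 and 20.3 ± 6.57 CPM without RT and 10.2 ± 7.17 and 15.8 ± 8.71 CPM after RT, in the same order of groups. Neither ligand passed the threshold in any comparison, and neither did Tyro3, which had at most 4.52 CPM. Mfge8, which links phosphatidylserine to the integrin, averaged 39.7 to 53.7 CPM in the 4 groups, and Itgav, the alpha-v chain, averaged 26.3 to 35.7 CPM. These 2 genes also passed in no comparison.

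**Figure D3:**
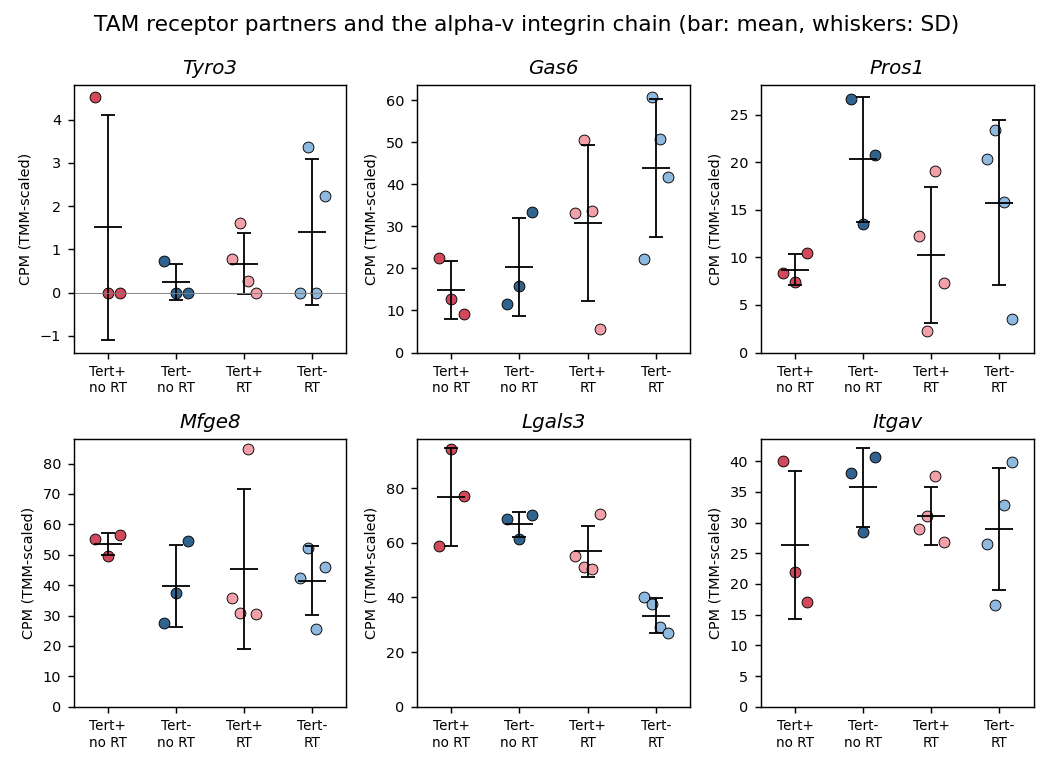
Level in CPM on TMM-scaled totals (linear axes that differ between panels) of Tyro3, the bridging proteins Gas6, Pros1, Mfge8 and Lgals3, and the alpha-v integrin chain Itgav, 1 point per library, with the mean and 1 SD. Ranges of Tert+ and Tert- overlap for most genes, while Lgals3 is lower in Tert- libraries after RT (26.8 to 40.1 CPM) than in any other group.

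The lists of pathway genes gave few calls outside the comparison of RT in Tert- cells, where 0.804% of all genes were called lower and 8078 of 15915 were lower. Of 7 tested TAM receptors and ligands, 1 fell after RT in Tert- cells, Lgals3, a galectin that can bridge dying cells to Mertk (log2 fold change -1.001 ± 0.20, SE, edgeR adjusted p = 0.0299). Of 21 tested phosphatidylserine and integrin receptors, 17 were lower there and 1 fell, the beta-1 integrin chain Itgb1 (-0.94 ± 0.22, SE, adjusted p = 0.0482), with a list median of -0.94. Of 23 tested genes of the engulfment machinery, 15 were lower and 1 fell, Vav1, an exchange factor for Rac. After RT, 0 genes of these 3 lists differed between Tert+ and Tert- past the threshold, and their medians were -0.52, 0.12 and 0.15. In Tert+ cells after RT the only call in these lists was Sirpa, the receptor of the signal CD47, which fell by 1.88 ± 0.43 (SE, adjusted p = 0.0389). In Tert- cells Sirpa had a similar log2 fold change of -1.71 ± 0.43 (SE, edgeR adjusted p = 0.0556).

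Lysosomal genes were mostly lower after RT in Tert- cells, as Cst3 was. Of 29 tested, 25 were lower, the median on the log2 scale was -0.40, and 5 fell, against 0.804% of all genes. Among these were the progranulin gene Grn (-1.002 ± 0.20, SE, edgeR adjusted p = 0.0286), the cathepsins Ctsb (-0.84) and Ctss (-0.74), and Lipa, the lysosomal acid lipase (-0.78). In Tert+ cells 23 of 29 were lower after RT with a median of -0.18, and 0 fell. Gla, alpha-galactosidase A, rose there (1.79 ± 0.43, SE, edgeR adjusted p = 0.0432). In Tert- cells Gla had a log2 fold change of 1.23 ± 0.42 (SE, adjusted p = 0.129). After RT it averaged 125 CPM in Tert+ and 124 CPM in Tert-. Between the populations after RT, 19 of 29 were lower in Tert+, with a median of -0.05 and 0 past the threshold. Cst3 was the only 1 of 4 tested cystatins that passed in any comparison. It passed for RT in Tert- cells, which reuses libraries of the contrast that guided the choice of genes.

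Of the lipid genes, 30 were tested. Abcg1, a cholesterol exporter that delivers lipid to lipoproteins, rose in Tert+ cells from 177 ± 67.0 CPM (SD, n = 3) to 330 ± 43.2 CPM (SD, n = 4), a log2 fold change of 0.90 ± 0.22 (SE, edgeR adjusted p = 0.0483). In Tert- cells Abcg1 had a log2 fold change of 0.72 ± 0.22 (SE, adjusted p = 0.0922). Abca1, which loads apolipoproteins with cholesterol, had 1.03 ± 0.33 (SE) in Tert+ and 1.04 ± 0.33 (SE) in Tert- cells and passed in neither (adjusted p = 0.119 and 0.109). Neither Abcg1 nor Abca1 differed past the threshold between Tert+ and Tert-, with or without RT. Apoe was called only without RT, in the contrast that guided its choice, and not after RT (edgeR adjusted p = 0.374). Nothing is read from that call.

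Of the families of the membrane proteins, 9 of 18 MS4A genes were tested and Ms4a7 was the only one that passed in any comparison. Ms4a7 passed without RT, in the contrast that guided its choice, and for RT in Tert+ cells, which reuses libraries of that contrast. Its place in the family is therefore in part built in. Of 13 organic anion transporter genes 6 were tested and none passed.

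Among the genes whose level was most like the mean of the 8, over 14 libraries, were Aif1 (Pearson r = 0.917), Lpcat2 (0.909), Tgfbr1 (0.889), Pea15a (0.887) and Tmem119 (0.877). These values are a description, since the libraries share the group structure that chose the genes. Over the 8 RT libraries alone these 5 genes had r of 0.624 (Pea15a) to 0.895 (Tgfbr1). Tmem119, a surface protein gene best known from microglia, went from 134 ± 11.6 CPM (SD, n = 3) in Tert- without RT to 42.6 ± 27.0 CPM (SD, n = 4) after RT, against 1.18 ± 1.04 and 2.16 ± 3.37 CPM in Tert+. Aif1, a calcium-binding protein gene of macrophages, had 43.2 ± 10.9 and 21.7 ± 9.95 CPM in Tert- and 5.72 ± 2.95 and 4.79 ± 2.15 CPM in Tert+. Among the 8 genes, Axl followed the mean of the other 7 most closely (r = 0.931) and Mertk least (r = 0.374).

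Complement C1q, made by macrophages, was used as a within-library reference, a measure added after the values were seen. Other macrophage markers did not all move with it, so the ratios cannot test macrophage content. For RT in Tert+, C1qa, C1qb and C1qc had log2 fold changes of 1.68, 2.57 and 1.64. Csf1r, Adgre1 and Cd68 had -1.77, -1.23 and -0.91 there, and 8 of 17 markers were higher and 9 lower, 0 past the threshold. The summed CPM of C1qa, C1qb and C1qc was 956 to 1212 in Tert- without RT and 784, 497, 472 and 180.1 in Tert- replicates 1 to 4 after RT. In Tert- libraries the ratio of Itgb5 to C1q was 0.0871 to 0.116 without RT and 0.0662 to 0.112 after RT, and that of Ms4a7 was 0.0454 to 0.0617 and 0.0570 to 0.0757. Both overlapped between the RT states, and Tert- replicate 4 after RT, lowest for most of the genes in CPM, had an Itgb5 ratio of 0.101 and an Axl ratio of 0.0666. The Axl ratio was 0.0730 to 0.123 without RT and 0.0525 to 0.0737 after RT, with a slight overlap.

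Ratios to C1q in Tert+ libraries ran above the Tert- range for each of these 3 genes in some libraries. Without RT C1qa, C1qb and C1qc were themselves 52.2-, 84.7- and 63.0-fold lower in Tert+, more than any of these 3 genes. High ratios in Tert+ follow from this and are not read as more RNA per macrophage. Itgb5 was 0.368 to 7.44 without RT and 0.139 to 0.242 after RT, above every Tert- library. Axl was 0.154 to 2.09 without RT, above every Tert- library, and 0.0621 to 0.149 after RT. Ms4a7 was 0.0268 to 0.526 and 0.0566 to 0.231, and both ranges overlapped that of the Tert- libraries.

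Apoe, Cst3 and Lgmn were followed in the same way. In Tert- libraries Apoe was 1.34 to 1.47 times C1q without RT and 1.65 to 5.74 times after RT, and Lgmn 0.292 to 0.484 and 0.516 to 1.36 times, in each case without overlap. Cst3 was 0.963 to 1.06 times C1q without RT and 0.747 to 1.47 times after RT. In Tert+ libraries after RT the ratios were 3.78 to 19.5 for Apoe, 2.37 to 8.97 for Cst3 and 2.17 to 7.34 for Lgmn. The Cst3 and Lgmn ratios were above those of every Tert- library, and the Apoe ratios above all but Tert- replicate 4 after RT. The C1q sums behind them were 38.8 to 121 CPM. After RT C1qa, C1qb and C1qc were themselves 6.91-, 6.59- and 7.95-fold lower in Tert+. Apoe, Cst3 and Lgmn were only 1.88-, 1.56- and 1.14-fold lower. Higher ratios in Tert+ follow from these differences, and a level per macrophage is not read from them. The C1q sums in Tert+ without RT rested on 34 to 410 counts, so ratios there are the least precise.

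**Figure D4:**
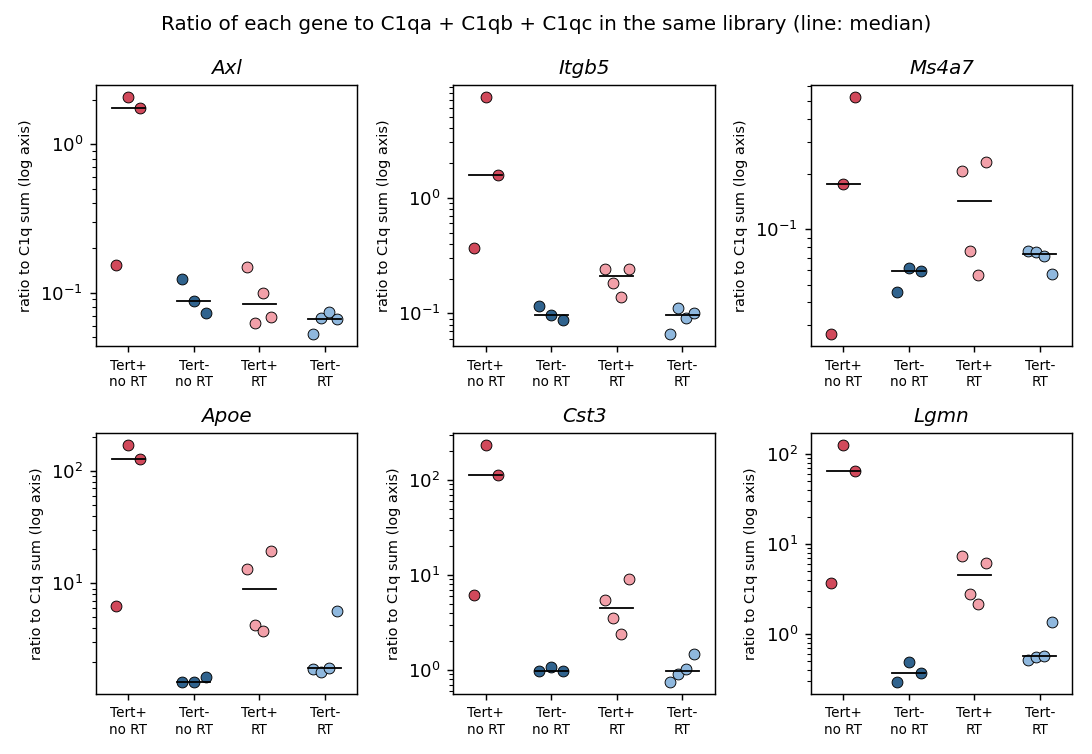
Ratio of 6 genes to the summed C1qa, C1qb and C1qc level of the same library (log axes that differ between panels), 1 point per library, with a line at the group median. In Tert- libraries Axl ran from 0.0525 to 0.123, Itgb5 from 0.0662 to 0.116 and Ms4a7 from 0.0454 to 0.0757, and for all 6 genes at least 1 Tert+ library lay above every Tert- library. The C1q sum itself was lower in every Tert+ library than in any Tert- library.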

How the data were processed

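The authors deposited 1 table of read counts per gene for 14 libraries, without normalisation. Per the submitters' processing notes, reads were aligned with HISAT2 to mm10. The counting program and annotation are not given in the sources used here. Groups follow the sample titles.

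The tools were edgeR 4.0.16 and R 4.3.3. The filter filterByExpr on the 4 groups left 15915 of 54532 genes, which were scaled by TMM. The model had 1 coefficient for each group and used all 14 libraries, and robust quasi-likelihood F tests, two-sided, gave p-values adjusted by the method of Benjamini and Hochberg over all genes tested (threshold 0.05). The fit was tested on simulated data. All fold changes and adjusted p-values are from edgeR unless another tool is named. CPM are counts relative to TMM-scaled library totals, on edgeR's usual scale, and counting intervals and bounds cover counting error only.

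DESeq2 1.42.0 and limma 3.58.1 (voom), other scalings and filters, and leaving out libraries were alternatives. The 8 genes and all lists were chosen with earlier results of these data known. The named genes are these 8, up to 4 genes per list that passed in a comparison (otherwise the 2 most abundant), and the 6 genes (mean log2 CPM 2 or more) most correlated with the 8. Partner genes (Gas6, Pros1, Tyro3, Mfge8, Itgav), Abca1 and Lipa were added after their values were seen. Some genes that this rule names are not reported here. The C1q ratio is a ratio of counts. No 2 libraries held identical counts.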

Additional observations from a re-analysis of the deposited data

Results flagged for a closer look

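In 2 of the 16 sets formed by 8 genes and the 2 RT groups of 4 libraries, 1 library stood far above the others. For 4 independent, normally distributed values chance gives about 1 in 20 such sets. That rate is nominal here, since some values are at or near 0 and most of the genes moved together. Mertk, a TAM receptor, was at 5.58 CPM in Tert+ RT replicate 1, against 0 to 0.647 CPM in the other libraries of that group. Slco2b1, an organic anion transporter, was at 35.4 CPM in Tert- RT replicate 1, against 7.39 to 11.9 CPM in its group. That library was also the highest of its group for C1q, at 784 CPM.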

How the results depend on the processing

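Counts below are members past the threshold, of 8. Leaving out 1 library at a time gave 1 to 5 without RT (4 in all libraries; 1 without Tert+ no RT replicate 2 or 3, and 2 without Tert- no RT replicate 1 or 3), 0 after RT, 0 to 1 for RT in Tert+, 0 to 3 for RT in Tert- (0 without Tert- no RT replicate 2 or 3 or Tert- RT replicate 3) and 0 for the difference of contrasts. DESeq2 gave 4 after RT, 2 for RT in Tert+, 3 for RT in Tert- and 1 for the difference of contrasts. For RT in Tert+, limma voom and a fit to the compared groups alone each gave 0, and the latter tested 6 of 8 members. For RT in Tert-, limma voom gave 4 and no filter on low counts gave 3. Over these alternatives all genes called numbered 1 to 74 without RT (6 in all libraries), 0 to 109 after RT (2), 21 to 1057 for RT in Tert+ (315), 18 to 1198 for RT in Tert- (258) and 0 to 12 for the difference (0). Whether replicate numbers pair the samples is not given in the sources used here. Tert+ and Tert- libraries of the same number and RT state carry adjacent library numbers. Same-numbered libraries deviated together with r of -0.05 to 0.12, over 0.1 in 2 of 7 pairs. Other pairs had r of -0.18 to 0.10, over 0.1 in 1 of 18. These low values cannot exclude pairing. With the replicate number as a block, 4 members were called without RT, 0 after RT, 1 for RT in Tert+ and 2 (Axl and Cst3) for RT in Tert-. The block turned RT effects to 0.24 (Axl) and 0.18 (Itgb5) in Tert+ and 1.52 (Mertk) in Tert- (log2). For RT in Tert+, Axl was near 0 and also turned positive with DESeq2 size factors (0.0070), TMMwsp (0.016), DESeq2 (0.0075) and without both RT replicates 4, a choice made after seeing the data (0.28; Itgb5 0.0071), where 0 members were called after RT and 1 in each RT comparison. Leaving out 1 library turned the sign of uncalled log2 values over these ranges: for RT in Tert+, Axl -0.48 to 0.27, Itgb5 -0.45 to 0.13, Lgmn -0.10 to 0.19 and Mertk -1.07 to 4.58. Mertk ranged from -3.24 to 0.77 after RT, -1.64 to 0.20 for RT in Tert- and -0.54 to 5.13 for the difference. The causes of these shifts were not tested. CPM on raw totals moved no group mean of a member beyond its SD. Low counts limit Mertk and Slco2b1.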
